A study of Mus musculus with 2 samples.

Results

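The 10 genes Gnat3, Rgs13, Dclk1, St18, Fyb, Pik3r5, Pou2f3, Trpm5, Avil and Ptgs1 were followed in single epithelial cells of the mouse bile duct, and are 10 of the 55415 genes in the count tables. They were taken by gene name from a list of genes tied to tuft cells, which had been drawn up after a first analysis of the same cells. Their co-occurrence in these data is therefore a description. Each cell was read for how many of the 10 it held, and all 10 genes had counts in both libraries.

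Tuft cells, also called brush cells, are rare chemosensory cells of epithelia, with a tuft of stiff microvilli, and the transcription factor Pou2f3 is needed for them to form. They use a signalling chain shared with taste cells, in which a receptor acts through the G protein gustducin (alpha subunit Gnat3), phospholipase C and inositol trisphosphate receptors, and calcium then opens the cation channel Trpm5. They also release eicosanoids, acetylcholine and the cytokine Il25, and have been described in the gallbladder and the larger bile ducts as well as in the gut and airways.

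Biliary epithelial cells line the bile ducts, and here they were fixed and labelled with the split-pool method, in which a cell collects a barcode in each round of mixing and redistribution over wells. There was 1 library labelled Sox9cKO, described in the series as deficient in the transcription factor Sox9, and 1 library labelled Sox9con, its control. Strain, age, the number of animals and the promoter behind any Cre are not given in the labels used here. With 1 library per group the genotypes cannot be tested, so no p-value is given, and every interval is an exact 95% interval that covers counting error only.

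The library labelled Sox9cKO held 2740 cells with a median of 5020 UMIs (unique transcript counts), and the library labelled Sox9con held 3622 cells with a median of 3161 UMIs. After filtering, 2712 and 3505 cells remained. Of these, 2619 and 3379 formed the biliary fraction, the cells left once 85 and 119 endothelial-like and 8 and 7 mesenchymal-like cells were set aside. Sox9 itself was measured at 122 CPM (116 to 128; CPM is UMIs of a gene per 1000000 UMIs summed over the cells, with no correction for gene length) in the biliary fraction of the library labelled Sox9cKO and at 145 CPM (138 to 152) in the other. First-round barcoding wells, which are technical parts of a library, spanned 101 to 145 CPM and 73.8 to 219.9 CPM for Sox9. The well ranges overlapped, so the transcript count of Sox9 did not separate the libraries by their labels, and directions below are given for the library labelled Sox9cKO against the library labelled Sox9con. The libraries shared 0 cell barcodes.

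Promoter sequence was read for the members because Pou2f3, a POU-domain factor known to bind the octamer motif ATGCAAAT, is one of them. RefSeq windows of the 250 bases before a gene's start (assembly GRCm38.p6) were at hand for 8 of the 10 members, in 9 windows. Searched on both strands, the octamer ATGCAAAT was in 0 of the 8 genes, and in 1.60% of 32851 windows of the same length. Its first 7 bases, ATGCAAA, which lie within the octamer, were in 1 of the 8, Avil, and in 4.12% of all windows. Avil holds 2 matches, whose farther ends are 15 and 115 bases before the start. The Avil window is shown because of these matches, with the motif in capitals (TTTGCAT is its reverse strand form). Gnat3 and Trpm5, the genes of the taste signalling chain, are shown beside it, as windows without a match.
Avil: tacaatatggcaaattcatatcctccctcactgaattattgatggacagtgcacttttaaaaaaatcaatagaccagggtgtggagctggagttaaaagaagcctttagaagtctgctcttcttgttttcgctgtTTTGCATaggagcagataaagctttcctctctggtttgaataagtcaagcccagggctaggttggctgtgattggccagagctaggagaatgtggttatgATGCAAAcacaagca
Gnat3: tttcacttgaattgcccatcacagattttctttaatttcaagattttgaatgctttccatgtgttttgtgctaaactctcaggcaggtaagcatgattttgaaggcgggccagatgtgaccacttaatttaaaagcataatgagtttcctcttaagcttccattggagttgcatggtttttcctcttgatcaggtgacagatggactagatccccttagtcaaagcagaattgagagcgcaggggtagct
Trpm5: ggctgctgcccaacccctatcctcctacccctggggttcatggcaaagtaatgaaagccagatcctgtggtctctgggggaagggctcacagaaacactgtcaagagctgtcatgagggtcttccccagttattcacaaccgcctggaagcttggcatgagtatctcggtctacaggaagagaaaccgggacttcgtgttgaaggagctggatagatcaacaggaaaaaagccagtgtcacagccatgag
The windows lie at chr10:127000459-127000708 on the plus strand for Avil, chr5:17962320-17962569 on the plus strand for Gnat3 and chr7:143094643-143094892 on the minus strand for Trpm5. A match is a run of letters in a window and shows neither binding nor use of the site.

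Most cells held none or 1 of the 10 genes, and a small set held nearly all of them. In the library labelled Sox9cKO, 1952 cells held 0, 650 held 1, 84 held 2, 7 held 3 and 2 held 4. No cell there held 5, 6 or 7, while 3 held 8, 3 held 9 and 11 held all 10. In the library labelled Sox9con, 2769 cells held 0, 654 held 1, 61 held 2, 8 held 3, 1 held 4 and 1 held 5. Again 0 cells held 6 or 7, 6 held 8, 2 held 9 and 3 held all 10. Both libraries therefore had a gap between a tail of cells with up to 4 or 5 genes and a separate group of 17 and 11 cells with 8 or more.

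**Figure D1:**
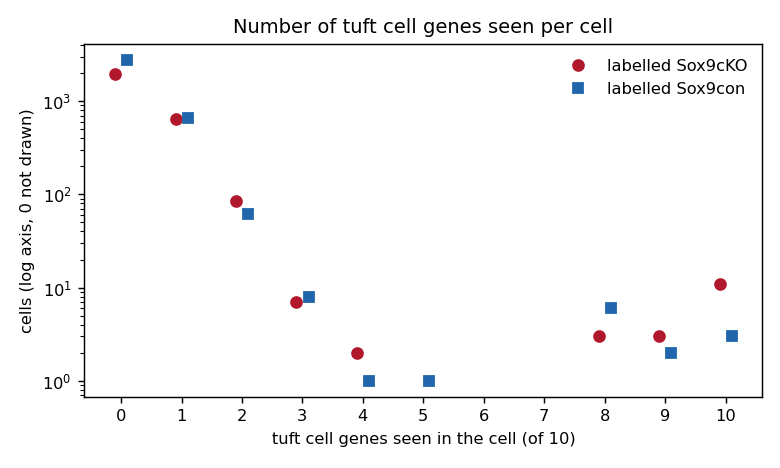
Number of cells (vertical log axis, counts of 0 not drawn) against the number of the 10 tuft cell genes seen in the cell, for the library labelled Sox9cKO (red circles) and the library labelled Sox9con (blue squares). In both libraries the points fall steeply up to 4 or 5 genes and reappear at 8, 9 and 10, with 11 and 3 cells at 10.

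The gap was also seen in the amount of transcript. Cells with 8 or more of the genes held 75 to 460 UMIs of the 10 together in the library labelled Sox9cKO, against 4 to 12 UMIs in cells with 3 or 4. In the library labelled Sox9con, the range was 50 to 132 UMIs in cells with 8 or more and 3 to 10 UMIs in cells with 3 or 4, and the cell with 5 genes held 8. The groups did not overlap in either library.

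A cell with at least 3 of the 10 is called a multi-member cell here, and the members just inside that limit are the 3-gene cells above. There were 26 of 2712 cells (0.959%, 0.627 to 1.40) in the library labelled Sox9cKO and 21 of 3505 (0.599%, 0.371 to 0.914) in the library labelled Sox9con. At 5 or more genes, a limit chosen after the distribution was seen, there were 17 (0.627%, 0.366 to 1.002) and 12 (0.342%, 0.177 to 0.597). Depth differs between the libraries, and after every cell was thinned to 2000 UMIs, which drops 169 and 616 cells below that depth, the shares at 3 or more were 0.747% (0.450 to 1.16) and 0.381% (0.190 to 0.680). The intervals of the libraries overlapped at both limits, and so did the thinned ones. Every first-round well held such cells, with 2, 5, 6, 1 and 3 cells of 5 or more genes in wells A11, A12, B1, B2 and B3 of the library labelled Sox9cKO. Wells D9, D10, D11 and D12 of the other library held 2, 2, 4 and 4.

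The cells with 5 or more genes were of ordinary depth. Their median was 5364 UMIs (2272 to 13068) in the library labelled Sox9cKO, where the rest of the biliary fraction had 5124, and 2374.5 UMIs (1102 to 7286) in the library labelled Sox9con, where the rest had 3225.5. Their median mitochondrial share was 1.01% and 1.42%, below the 5.94% and 5.55% of the rest. Doublets could not be judged with the caller used, which marked 3 of 6362 cells (0.0472%), too few for it to have worked.

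**Figure D2:**
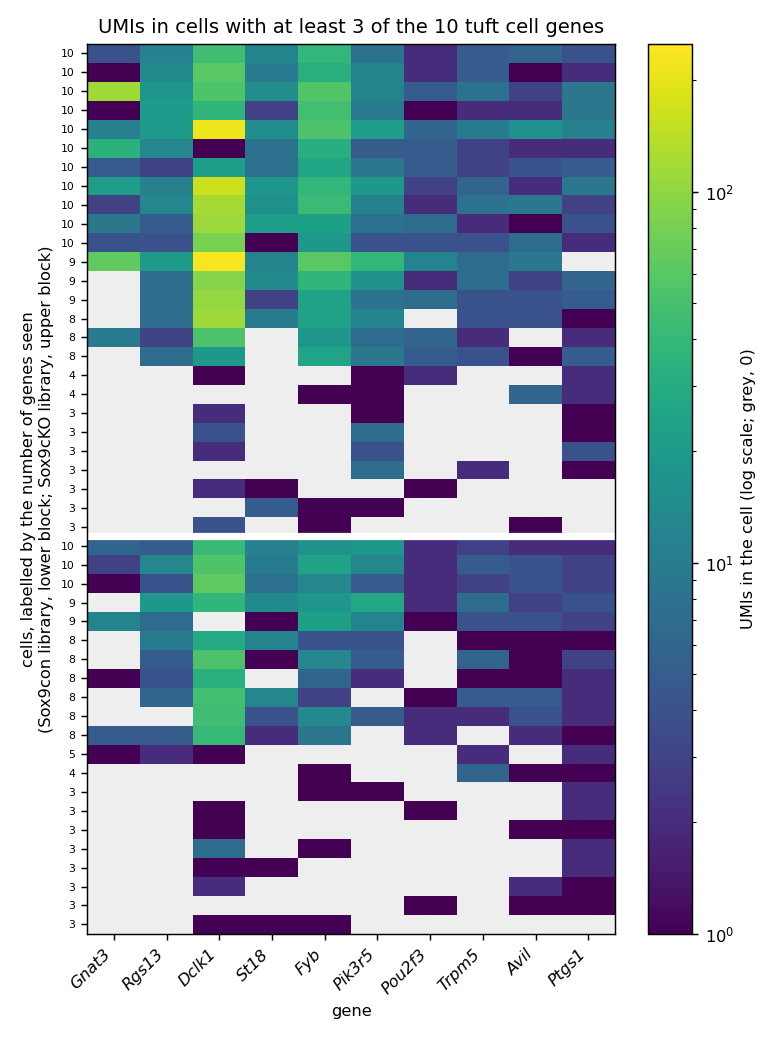
UMIs of each of the 10 genes (columns; colour on a log scale, grey for 0) in every cell with at least 3 of them (rows, labelled with the number of genes seen), with the library labelled Sox9cKO in the upper block and the library labelled Sox9con in the lower. Cells with 8 or more genes hold many UMIs of Dclk1 and Fyb in most rows, while cells with 3 or 4 hold few UMIs of any and 0 of Gnat3 and Rgs13.

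The cells also stood together when the 10 genes, and Sox9, were removed before clustering. All 29 cells with 5 or more genes fell into 1 cluster of 31 cells, whose other 2 cells held 4 genes each. The count was the same at Leiden resolutions 0.3 and 1.0 and with 4000 in place of 2000 variable genes. With the 10 genes usable, 28 of the 29 made up a cluster of 28 cells. Of the 61 other tuft cell genes on the lists used here that the tables hold, 42 reached 50 CPM in the 31-cell cluster, against 10 to 15 in the other clusters. The same cluster had 20 of 24 biliary markers, 2 of 24 leukocyte markers and 1 of 12 endothelial markers at that level. Biliary markers at that level were 19 to 21 in the other biliary-classed clusters, and 15 in the endothelial-like cluster. By the share of its markers the 31-cell cluster was thus classed with the biliary cells. It is called here by its leading genes, which included Gnat3, Eya1, Rgs13, Itprid1, Trpm5 and Bmx.

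The remaining 16 multi-member cells, 8 in each library, lay in other clusters. Of the 8 cells labelled Sox9cKO, 6 held Dclk1, 6 held Pik3r5, 5 held Ptgs1 and 0 held Gnat3 or Rgs13. Of the 8 labelled Sox9con, 7 held Ptgs1, 6 held Dclk1 and 0 held Gnat3, Rgs13 or Trpm5. They had medians of 7051 and 4107.5 UMIs, above those of the rest of the biliary fraction. Of the 8 cells labelled Sox9con, 2, with 44473 and 3703 UMIs, belonged to the endothelial-like cluster and held 63 and 10 UMIs of Pecam1, an endothelial adhesion molecule. In cells with exactly 2 of the 10 genes, the most frequent pair was Dclk1 with Ptgs1, in 47 of 84 cells (56.0%) and 20 of 61 cells (32.8%).

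Of the taste signalling genes, Gnat3 was the most confined and the most uneven. The library labelled Sox9cKO held 288 UMIs of Gnat3, of which 285 (99.0%) were in cells with 5 or more of the genes, and the library labelled Sox9con held 30, of which 29 were there. It was seen in 13 of the 17 and 7 of the 12 cells. The lowest, median and highest counts were 0, 4 and 115 UMIs in a cell in the former and 0, 1 and 12 in the latter. One cell in each library held 40.4% and 41.4% of these UMIs. In cells chosen by at least 5 of the other 9 genes, so that Gnat3 did not choose them, its level was 2830 CPM (2511 to 3178) and 828 CPM (550.3 to 1197). That difference rests largely on a few cells, since the medians over cells with 5 or more genes were 854 and 395 CPM. Outside the multi-member cells 3 and 1 UMIs remained, among 2593 and 3360 cells, and no fold is given for so few.

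Trpm5, the channel at the end of the same chain, was low per cell but seen in nearly every cell of the set. It was in 17 of 17 cells labelled Sox9cKO, with 2, 4 and 10 UMIs as lowest, median and highest, and in 11 of 12 labelled Sox9con, with 0, 3 and 7. By the other 9 genes its level was 834 CPM (665 to 1033) and 1094 CPM (771 to 1508), against 5 and 7 UMIs in all the rest of the biliary fraction. Rgs13, a regulator of G protein signalling, was in 17 of 17 and 11 of 12 cells, with medians of 11 and 5 UMIs. Outside there were 3 and 8 UMIs of Rgs13. For both genes the intervals of the libraries overlapped outside the set, where the log2 ratio was -0.72 (-2.72 to 1.15) for Trpm5 and -1.65 (-4.20 to 0.40) for Rgs13.

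Pik3r5, a regulatory subunit of the gamma type of phosphoinositide 3-kinase, was at 2105 CPM (1831 to 2408) and 2535 CPM (2043 to 3109) by the other 9 genes. It was seen in 17 of 17 cells, with 4, 10 and 39 UMIs, and in 9 of 12, with 0, 5 and 27. Outside the multi-member cells the libraries differed, with 44 UMIs in 22 cells labelled Sox9cKO and 2 UMIs in 2 cells labelled Sox9con. The log2 ratio there was 4.22 (2.28 to 7.31), with 2 UMIs in its lower term. Wells labelled Sox9cKO held 0, 18, 16, 5 and 5 of those UMIs, and 1 cell held as many as 7, so the count came from few cells and 1 well had none. Endothelial-like cells labelled Sox9cKO held Pik3r5 at 19.1 CPM (6.19 to 44.5), 5 UMIs in 1 cell, above the outside level of 3.07 CPM (2.23 to 4.13), and those labelled Sox9con held 0 UMIs. In the clustering without the 10 genes, a cluster led by Ifi202b and Csf2 held 28 of the 44 UMIs, at 6.49 CPM (4.31 to 9.37). As for Avil and Ptgs1 below, whether the outside counts are biliary expression was not tested.

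Pou2f3 itself was not confined to these cells. It was seen in 16 of 17 cells labelled Sox9cKO, with 0, 5 and 12 UMIs as lowest, median and highest, and in 8 of 12 labelled Sox9con, with 0, 1.5 and 2. By the other 9 genes its level was 735 CPM (577 to 922) and 386 CPM (211 to 647), and the intervals overlapped. Cells with 5 or more of the genes held 74 of its 142 UMIs (52.1%) and 14 of its 119 (11.8%). Outside the multi-member cells it had 62 UMIs, 4.33 CPM (3.32 to 5.55), in the library labelled Sox9cKO and 102 UMIs, 8.41 CPM (6.86 to 10.2), in the library labelled Sox9con. The log2 ratio was -0.96 (-1.44 to -0.49), with the well labelled Sox9cKO lower in 20 of 20 pairs of wells.

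In the clustering without the 10 genes, the outside level of Pou2f3 was highest in both libraries in a cluster led by Banf2, Scn11a, Aldh3b2, Kcnh4 and Ctrc, which held 42.6% of its outside UMIs in the library labelled Sox9con and 14.5% in the other. In the 186 cells labelled Sox9con of that cluster it was at 72.2 CPM (52.3 to 97.3) and seen in 30 cells (16.1%), and in the 64 cells labelled Sox9cKO at 33.6 CPM (15.4 to 63.9), in 4 cells (6.25%). In all other clusters it was at 5.12 and 3.77 CPM. Between the libraries the log2 ratio was -0.44 (-1.002 to 0.12) without the cluster, so the difference no longer lay beyond counting error, and the cluster made up 5.54% of outside cells labelled Sox9con and 2.47% of those labelled Sox9cKO. The cells of the cluster were unlike the 8-or-more set in the other genes: Bmx and Alox5 had 0 UMIs in both libraries, and Krt19 was at 549 and 546 CPM. Of these cells, 132 of 186 and 42 of 64 held 0 of the 10 genes, and 4 and 0 held Pou2f3 and Avil together.

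St18, a zinc finger transcription factor, was close to confined. Its counts in the cells with 5 or more genes were 0, 10 and 22 UMIs, seen in 15 of 17 cells, and 0, 6 and 14 UMIs, seen in 10 of 12. It was at 1658 CPM (1416 to 1930) and 2094 CPM (1650 to 2621) by the other 9 genes, against 12 UMIs outside in each library. Both transcription factors were thus detected in the set, St18 with few UMIs elsewhere and Pou2f3 with many of its UMIs elsewhere.

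Of the genes tied to structure, Dclk1, a microtubule-associated kinase widely used as a tuft cell marker, had the most UMIs of the 10 in the set, on a scale that does not take gene length into account. Cells with 5 or more genes held 1, 82 and 235 UMIs of it in the library labelled Sox9cKO and 0, 41 and 63 in the library labelled Sox9con. By the other 9 genes it was at 15182 CPM (14430 to 15962) and 13221 CPM (12023 to 14505). Outside, Dclk1 was still at 51.2 CPM (47.6 to 55.1) and 33.5 CPM (30.3 to 36.9), and up to 18 and 16 UMIs were found in a single cell. It was seen in 12.4% and 6.46% of outside cells, and in 6.96% (5.99 to 8.04) and 4.43% (3.70 to 5.26) at 2000 UMIs per cell. Endothelial-like cells held it in 2.35% and 2.56%, at medians of 2399 and 2262 UMIs per cell. The source of the outside counts was not tested.

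Between the libraries Dclk1 outside the set had a log2 ratio of 0.61 (0.44 to 0.79), with the well labelled Sox9cKO higher in 18 of 20 pairs. It was highest in the same cluster in both, one led by Ifi202b and Csf2, at 91.3 CPM in 731 cells labelled Sox9cKO and 219.6 CPM (174 to 274) in 68 cells labelled Sox9con. Within that cluster the order of the libraries was therefore the opposite of that over all outside cells. Of all genes with at least 200 UMIs outside, 3.95% of 9312 were at least 2-fold apart, 2.18% higher and 1.77% lower in the library labelled Sox9cKO. Dclk1 and Ptgs1 were the 2 members that reached that count, and 0 of them were 2-fold apart.

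Avil, which encodes the actin-bundling protein advillin, was in 16 of 17 and 11 of 12 cells, with 0, 3 and 16 UMIs and 0, 2.5 and 5. By the other 9 genes it was at 735 CPM (577 to 922) and 854 CPM (580 to 1212). The set held 74 of its 117 UMIs in the library labelled Sox9cKO and 31 of its 104 in the other. Outside it was at 2.03 CPM (1.36 to 2.91) and 4.70 CPM (3.56 to 6.09), a log2 ratio of -1.21 (-1.91 to -0.54), lower in the well labelled Sox9cKO in 20 of 20 pairs. Without the Banf2 and Scn11a cluster the ratio was -0.91 (-1.68 to -0.16). In the library labelled Sox9cKO outside Avil was highest in a cluster led by Dcn and Lum, at 14.7 CPM (8.24 to 24.3). That level is over 161 biliary-classed cells of the 169 labelled Sox9cKO in the cluster. Its mesenchymal-like cells are not outside cells, whereas the leading genes were taken over the whole cluster. In the other library outside Avil was highest in the Banf2 and Scn11a cluster, at 28.6 CPM (16.6 to 45.7). Endothelial-like cells held Avil at 26.7 and 34.4 CPM, from 7 and 11 UMIs, above its level over all outside cells. Whether its outside counts are expression in biliary cells was not tested. Avil overlaps Tsfm, a gene on the opposite strand in GENCODE M21, and Trpm5 overlaps Tssc4 in the same way. Whether the authors' counting used strand is not given in the sources used here, so reads of such partners may not have been told apart.

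Fyb, an adaptor of immune receptor signalling known from T cells and platelets, was seen in 17 of 17 cells, with 18, 33 and 61 UMIs, and in 11 of 12, with 0, 13 and 24. Its level by the other 9 genes was 5957 CPM (5490 to 6454) and 3940 CPM (3321 to 4641), and those intervals did not overlap. Outside it had 36 and 27 UMIs, 2.51 and 2.23 CPM, with a log2 ratio of 0.18 (-0.58 to 0.95). Of the 36, 13 were in a cluster led by Grap2, Dock2 and Ptprc, at 51.2 CPM (27.3 to 87.5). One outside cell labelled Sox9cKO held 10. In the other library Fyb was at 1.60 CPM (0.519 to 3.73) in that cluster. Over the whole cluster 0 of 24 leukocyte markers reached 50 CPM. The source of these counts was not tested. Endothelial-like cells held 1 and 2 UMIs of Fyb, 3.81 CPM (0.097 to 21.2) and 6.25 CPM (0.757 to 22.6). Most leukocyte markers had no counts beside Fyb: 21 of 24 leukocyte markers were at 0 in the cells with 5 or more genes in each library. The 3 others were Kit, with 87 and 26 UMIs, Ptprc, with 7 and 1, and Cd74, with 3 and 1. Outside, the 24 leukocyte markers together were at 134 and 84.4 CPM. In the set 3 UMIs are 29.8 and 82.7 CPM, so low levels of these markers were not detectable.

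Ptgs1, the constitutive cyclooxygenase of prostaglandin synthesis, was the least confined of the 10. The set held 79 of its 519 UMIs (15.2%) and 28 of its 462 (6.06%). By the other 9 genes it was at 784 CPM (621 to 978) and 769 CPM (502 to 1127), against 27.0 CPM (24.3 to 29.8) and 29.2 CPM (26.2 to 32.4) outside. Endothelial-like cells held more than the latter, 164 and 213 CPM, in 31.8% and 41.0% of cells, against 12.0% and 9.08% of outside cells. Outside, Ptgs1 was highest in the same cluster in both libraries, one led by 9530053A07Rik and Scgb3a1. It was at 52.4 CPM (41.1 to 65.9) and 56.9 CPM (47.6 to 67.5) there, and lowest in other clusters at 11.5 and 5.02 CPM. Whether the outside counts of Ptgs1 are biliary expression was not tested. Over all outside cells Ptgs1 did not differ between the libraries beyond counting error, with a log2 ratio of -0.11 (-0.33 to 0.10).

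**Figure D3:**
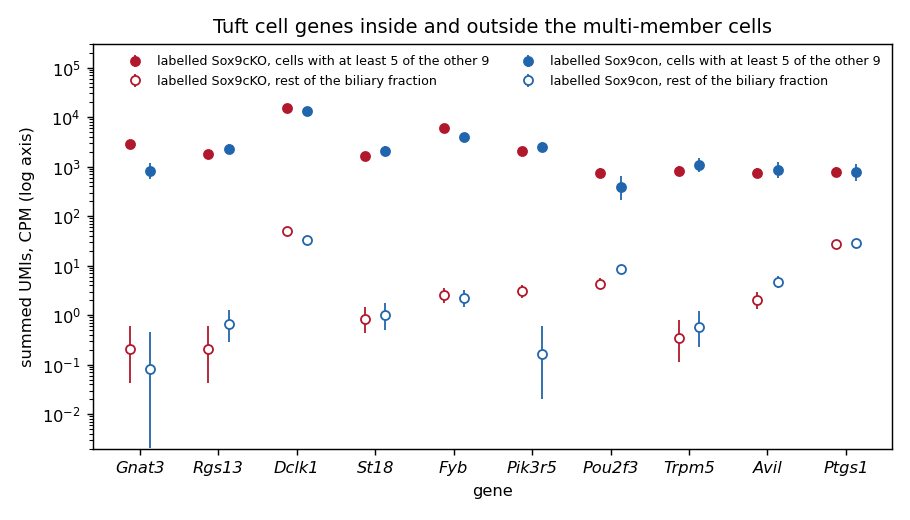
Level of each of the 10 genes (summed UMIs in CPM, log axis, bars exact 95% Poisson intervals of counting error) in cells with at least 5 of the other 9 genes (filled) and in the rest of the biliary fraction (open), for the library labelled Sox9cKO (red) and Sox9con (blue). Every filled point lies above its open point, and the open points of Dclk1 (51.2 and 33.5 CPM) and Ptgs1 (27.0 and 29.2 CPM) are the highest.

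Across the genes with more than 3 UMIs outside, the level in cells chosen by the other 9 was 29.1 to 2388 times that outside in the library labelled Sox9cKO. The range was 26.3 to 3497 times in the library labelled Sox9con. The ends of the range were Ptgs1, lowest in both libraries, and Trpm5 and Rgs13, highest in the former and in the latter. Gnat3, Rgs13, St18 and Trpm5 were at 0 UMIs in the endothelial-like cells of both libraries. Of their UMIs in each library, Dclk1, Pou2f3, Avil and Ptgs1 had 66.9% or less in the cells with 5 or more genes, and the other 6 genes had 74.9% or more.

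**Figure D4:**
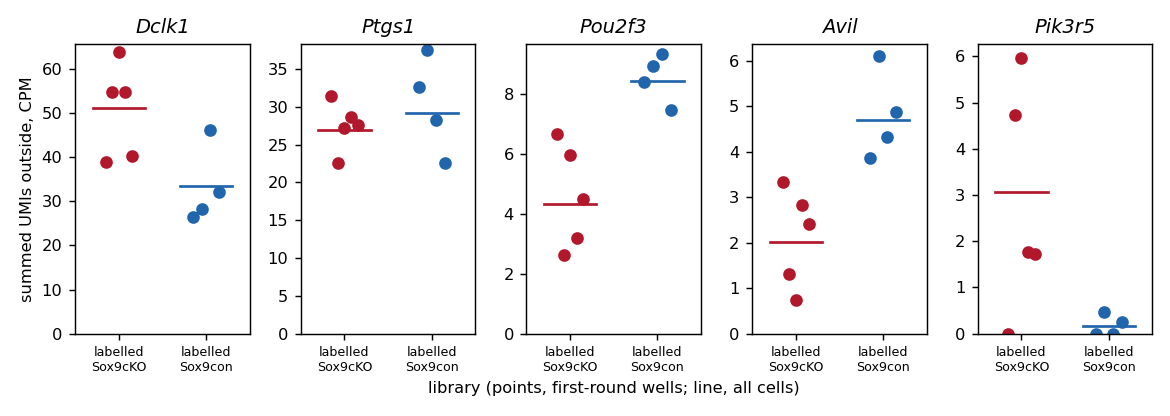
Level outside the multi-member cells (summed UMIs in CPM, axes from 0) of Dclk1, Ptgs1, Pou2f3, Avil and Pik3r5, in each first-round well (points; 5 wells labelled Sox9cKO, 4 labelled Sox9con) and over all cells (lines). Wells do not overlap between the libraries for Pou2f3 and Avil, and overlap for Dclk1, Ptgs1 and Pik3r5.

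Wells belong to 1 library each, so wells and libraries cannot be told apart, and the spread between wells is technical. Of the 9 genes with more than 3 UMIs outside in a library, 4 were apart between the libraries by more than counting error, Dclk1 and Pik3r5 toward higher and Pou2f3 and Avil toward lower values in the library labelled Sox9cKO. Of all 18778 genes with such counts, 39.5% were apart by that measure, so a count of 4 of 9 is near the background and is no result about these genes. The count was 3 without the Banf2 and Scn11a cluster. Whether the outside counts of the 4 genes are biliary expression was not tested.

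Other transcripts were compared between the multi-member cells and the rest of the biliary fraction over 11273 genes with at least 100 UMIs. At least 4-fold higher were 3.59% of them in the library labelled Sox9cKO and 4.99% in the library labelled Sox9con, and 162 genes (1.44%) were so in both. At least 4-fold lower in both were 41 (0.364%). For cells with 5 or more of the genes, 5.01% and 7.12% were higher and 3.88% and 2.01% lower in each library, and 270 (2.4%) were higher and 95 (0.843%) lower in both. In these counts 1 deep cell can weigh much: endothelial-like cells of 44473 and 3703 UMIs lie in the 3-or-more set of the library labelled Sox9con, where 10 of 12 endothelial markers were at least 4-fold higher, and neither is in the 5-or-more set. The values that follow are therefore of cells with 5 or more genes.

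By the rule for other genes, the 20 with the highest smaller ratio of the libraries included Bmx, Itprid1, Mctp1, Lrmp, Pik3cg, Inpp5d, Trhde, Sh2d6, Sh2d7, Alox5, Alox5ap, Hpgds, Strip2, Dgki, Sv2c, Vav1, Nrgn, Ano7 and Hepacam2. They came from 2281 eligible genes. Of the 20, 13 were on the tuft cell lists, which were drawn up with earlier results of these data known, so that count is a description. With cells of 5 or more genes, 17 were also among the top 20. Those cells are part of the multi-member cells, so this overlap is no independent support. Several encode signalling enzymes. Bmx, a Tec family tyrosine kinase, had 148 and 42 UMIs inside against 9 and 3 outside. Vav1, a guanine nucleotide exchange factor, had 39 and 23 against 13 and 10. Pik3cg, the catalytic partner of the Pik3r5 subunit, was at 983 and 1102 CPM inside and had 20 and 4 UMIs outside. Inpp5d, a lipid phosphatase acting on the product of such kinases, was at 695 and 1433 CPM. Both libraries had each of these genes in the set and few UMIs in the rest of the biliary fraction. Inpp5d was not confined to the set. Of its 261 UMIs in kept cells, 70 and 58 were in multi-member cells and 14 and 14 in other biliary cells. The remainder lay outside the biliary fraction.

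Genes of calcium and diacylglycerol handling were in the set as well. Mctp1, a membrane protein with calcium-binding C2 domains, was at 4865 and 2700 CPM, and Dgki, a diacylglycerol kinase, at 5163 and 4739 CPM, against 1.68 and 1.15 CPM and 5.52 and 5.44 CPM outside. Atp2a3, a calcium pump of the endoplasmic reticulum, was at 1519 and 1543 CPM against 2.65 and 5.11 CPM. Itpr2, a receptor for inositol trisphosphate, was at 2552 and 2728 CPM, and was also present outside, at 96.5 and 121 CPM. Itpr3, another receptor of that family, was at 109 and 82.7 CPM inside and 157 and 114 CPM outside, from 11 and 3 UMIs inside, and did not differ beyond counting error.

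The 20 genes were chosen on the multi-member cells, most of which hold 8 or more of the 10, so their number per cell is a description. Cells with 8 or more of the 10 held a median of 16 (9 to 20) and 17 (11 to 20) of the 20. The 3 cells with 4 or 5 genes in the 31-cell cluster held 9 in the library labelled Sox9cKO, and 4 and 9 in the other. The 16 multi-member cells of other clusters had a median of 0 in both libraries, with a highest of 2 and 4.

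**Figure D5:**
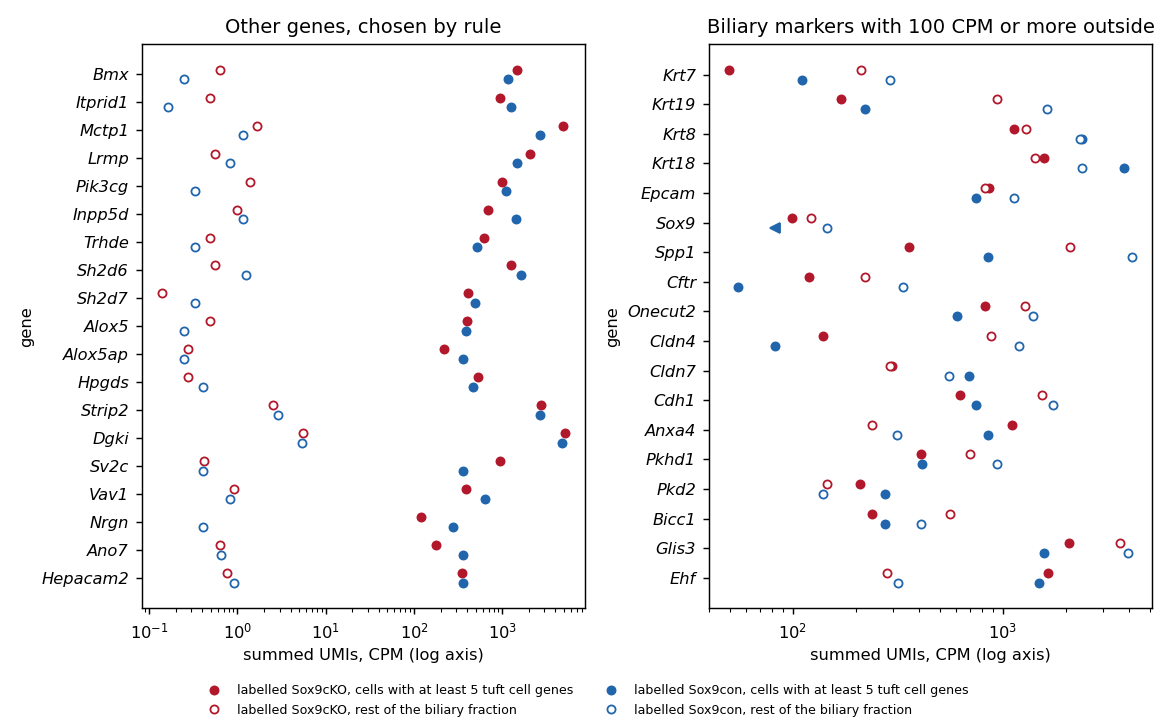
Level (summed UMIs in CPM, log axes) in cells with at least 5 of the tuft cell genes (filled) and in the rest of the biliary fraction (open; a level of 0 is not drawn) of other genes chosen by rule (left) and of biliary markers with at least 100 CPM outside in both libraries (right), for the library labelled Sox9cKO (red) and Sox9con (blue). On the left filled and open points are far apart, on the right they lie close for Krt8, Krt18, Epcam and Cldn7, and the arrow marks the level of 3 UMIs for Sox9, which had 0.

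The lists of tuft cell genes had been drawn up with earlier results of these data known, so their counts describe and do not add evidence. Of 61 such genes in the tables, 28 had at least 100 UMIs, and 16 of these were at least 4-fold higher in multi-member cells of both libraries, where 1.44% of all genes were. With 5 or more genes it was 21 of 28, where 2.4% of all genes were, and 0 were 4-fold lower. The signalling and structure list gave 17 of 18 tested genes, among them Kctd12, Plcg2, Ptpn6, Espn and Vil1. Its median log2 difference was 6.81 and 6.67, against -0.36 and -0.80 over all genes tested. Setting counts of 0 at 3 UMIs, these medians were 6.82 and 6.69 for the list, and 0.43 and 1.26 over all genes.

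Taste receptors were hardly seen. Of 15 genes on the taste transduction list, 8 and 9 were at 0 UMIs in the set, among them Tas1r1, the 4 Tas2r genes on the list, Gnb3, Rgs21 and Sucnr1, the succinate receptor of gut tuft cells. Tas1r3 had 2 and 0 UMIs. Plcb2, the phospholipase C of the taste chain, had 8 and 1 UMIs and Gng13, a gustducin gamma subunit, 2 and 7. With 100715 and 36294 UMIs in the set, 3 UMIs correspond to 29.8 and 82.7 CPM, so lower levels of these genes were not detectable at this depth. Rgs2, another regulator of G protein signalling, was at 1797 and 2755 CPM against 129 and 349 CPM outside.

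The leukotriene and prostaglandin D2 genes were present together. Alox5, the 5-lipoxygenase, had 40 and 14 UMIs, in 14 of 17 and 9 of 12 cells, with 7 and 3 outside. Its activating protein Alox5ap had 22 and 13, and Ltc4s, which makes leukotriene C4, had 6 and 8. Hpgds, the hematopoietic type of prostaglandin D synthase, had 53 and 17 UMIs, in 15 of 17 and 9 of 12 cells, with 4 and 5 outside. Ptges, a prostaglandin E synthase, was at 0 in both, and Ptgs2, the inducible cyclooxygenase, had 8 and 0 UMIs. Among Ptgs1, Ptgs2, Ptges and Hpgds, it was thus Ptgs1 and Hpgds that had counts in both libraries. Pla2g4a, also on the tuft cell lists, had 25 and 7 UMIs, 248 and 193 CPM against 75.4 and 33.8 CPM outside.

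Of the cytokine and acetylcholine genes, Il25 had 1 UMI in each library and Tslp 0. Il17rb, the receptor subunit for Il25, had 13 and 6 UMIs, in 8 of 17 and 3 of 12 cells. Chat, which makes acetylcholine, had 13 and 2 UMIs, in 6 and 2 cells. Il13ra1, a receptor subunit for Il13, was at 735 and 468 CPM against 176 and 178 CPM outside, and Il4ra had 13 and 0 UMIs. Each of Il25, Il17rb and Chat was thus seen in a minority of the cells.

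Among transcription factors beside Pou2f3 and St18, Spib, an Ets factor, had 28 and 10 UMIs, in 10 of 17 and 5 of 12 cells, with 2 and 3 UMIs in all other biliary cells. Hmx3 had 8 and 1, Hmx2 1 and 1, Gfi1b 3 and 0 and Ascl2 2 and 0. Runx1 was at 1916 and 1543 CPM against 204 and 183 CPM, and Ehf, an epithelial Ets factor, at 1638 and 1488 CPM against 282 and 317 CPM. Both were at least 4-fold higher in both libraries. Sox4 was at 576 and 165 CPM against 326 and 292 CPM, with 31 of its 58 UMIs in 1 cell of the library labelled Sox9cKO and 6 UMIs in all in the other.

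Several biliary markers were present in the cells within 2-fold of the level of their neighbours. Epcam, an epithelial adhesion molecule, was seen in 17 of 17 and 11 of 12 cells, at 864 and 744 CPM inside against 820 and 1129 CPM outside. Krt8 was at 1132 and 2370 CPM against 1283 and 2332 CPM, and its partner Krt18 at 1579 and 3775 CPM against 1431 and 2393 CPM. Cldn7, a tight junction protein, was at 298 and 689 CPM against 291 and 552 CPM. These epithelial genes differed by less than 2-fold in either library. In the library labelled Sox9con, 2 of them still differed beyond counting error. Krt18 was higher inside, with a log2 difference of 0.66 (0.40 to 0.90), and 1 cell held 33 of its 137 UMIs. Epcam was lower, at -0.60 (-1.20 to -0.06).

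Other biliary markers were lower. Krt19, the keratin that most often marks bile duct cells, was at 169 and 220 CPM against 934 and 1626 CPM, log2 differences of -2.47 and -2.88. Spp1, the secreted protein osteopontin, was at 357 and 854 CPM against 2100 and 4135 CPM, and Cldn4, a tight junction protein, at 139 and 82.7 CPM against 880 and 1191 CPM. The Spp1 levels in the set rest on few cells. It was seen in 9 of 17 and 4 of 12, and 1 cell in each library held 18 of 36 and 26 of 31 UMIs. Krt19, Spp1 and Cldn4 were the 3 of 23 tested biliary markers at least 4-fold lower in both libraries, where 0.843% of all genes were, and Ehf was the only one at least 4-fold higher in both. Krt7 had 5 and 4 UMIs, 49.6 and 110 CPM against 212 and 290 CPM. The biliary list had a median log2 difference of -0.78 and -1.20, or -0.30 and -0.81 with counts of 0 set at 3 UMIs.

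Sox9 was seen in 7 of 17 cells with 5 or more genes of the library labelled Sox9cKO, with 10 UMIs, 99.3 CPM (47.6 to 183), against 122 CPM outside. In the 12 cells of the library labelled Sox9con it had 0 UMIs, where 3 UMIs would be 82.7 CPM, against 145 CPM outside. The chloride channel Cftr was at 119 and 55.1 CPM against 222 and 333 CPM. Glis3, Onecut2, Pkhd1 and Cdh1 were at 2065, 824, 407 and 626 CPM in the library labelled Sox9cKO, each below its outside level, and at 1571, 606, 413 and 744 CPM in the other, also below. Anxa4, an annexin, was above its outside level, at 1102 and 854 CPM against 238 and 314 CPM. The anion exchanger Slc4a2 was at 49.6 and 138 CPM, from 5 UMIs in each library, against 23.9 and 27.0 CPM. Pkd2, a polycystin, was at 209 and 276 CPM against 145 and 139 CPM. Pkd2 did not differ from its outside level beyond counting error in either library, and Slc4a2 did not in the library labelled Sox9cKO.

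Most markers of other cell types had no counts in the set, where 3 UMIs are 29.8 and 82.7 CPM. Of 12 endothelial markers 11 and 9 were at 0, and the exception in both libraries was Tek, an angiopoietin receptor, with 34 and 9 UMIs in 9 and 5 cells. All 10 enteroendocrine markers were at 0 in both libraries, as were 9 and 10 of the 10 mesenchymal markers. Outside, the endothelial markers together were at only 32.6 and 46.0 CPM and the enteroendocrine markers at 1.96 and 2.56 CPM. Counts of 0 for these 2 lists thus say little about the set. Alb, the hepatocyte secretory protein, had 1 and 0 UMIs in the set, against 590 and 366 CPM outside. Of 9 hepatocyte markers 5 and 8 were at 0, and of 10 Schwann and neural markers 7 and 7. Kit, which also marks mast cells, was at 864 and 716 CPM without the mast cell genes Cpa3 and Fcer1a, which were at 0, and Map2, a microtubule protein known from neurons, was at 1509 and 1433 CPM against 177 and 203 CPM.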

How the data were processed

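Cells were fixed and prepared with a Parse Biosciences Evercode kit, in which reverse transcription starts from oligo(dT) and random primers, per the labels' protocols. The authors deposited whole-number UMI counts per cell and gene. The genome is GRCm39, per the submitters' processing notes. The aligner, annotation and use of strand are not given in the sources used here. The 2 libraries held 14856321 and 12811243 UMIs.

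Cells with at least 500 genes, 1000 UMIs and at most 15% mitochondrial UMIs were kept, without those marked by Scrublet (scanpy 1.11.5). Counts were clustered on 2000 variable genes, 30 components, 15 neighbours and Leiden resolution 0.5, without Sox9, and with and without the 10 genes. Clusters were classed by the share of a class's markers at 50 CPM. UMIs were summed per library and scaled to the total. Levels have exact Poisson intervals, shares Clopper-Pearson intervals and ratios conditional binomial intervals, all at 95%. All-gene ratios had 0.5 counts added, and a count of 0 was set at 3 UMIs for calls of lower genes. On simulated counts of 11307 genes, 90.5% of 200 genes raised 8-fold were called in both libraries and 0.0180% of the others. The simulated pools were near the size of the multi-member pools, had no spread between cells, and were scored for higher calls only. These rates therefore do not cover lower calls or the smaller pools of cells with 5 or more genes, 100715 and 36294 UMIs.

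The 10 genes, the lists (tuft, biliary, leukocyte, endothelial, hepatocyte, mesenchymal, enteroendocrine, Schwann and neural) and the rule for other genes were chosen with earlier results of these data known. The rule took the 20 genes with the highest smaller log2 ratio of the libraries, among those with at least 5 UMIs in, and seen in at least 25% of, the multi-member cells of each library. Of the list genes, Pou2af2, Pou2af3, Irag2 (Lrmp in the tables) and G6pc1 were not matched by name. The 5-gene limit was chosen after the distribution was seen. Replicates were not at hand, and wells of 1 library are technical parts. Gene overlaps were read from GENCODE M21, in which all 10 members matched, by name only, since its build is not that of the files. Some genes of the lists and of the rule are not reported here.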

Additional observations from a re-analysis of the deposited data

How the results depend on the processing

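Of the alternatives, 22 of 24 for the library labelled Sox9cKO and 19 of 23 for the library labelled Sox9con kept the share of multi-member cells within its interval. Without any 1 well or any 1 of the 10 genes, the share stayed in it. The share was 4.06% and 2.34% at 2 or more genes and 0.627% and 0.342% at 5 or more, and in the library labelled Sox9con it was 0.371% at 4 or more and 0.342% where 2 UMIs were needed per gene. The 162 genes at least 4-fold higher in both libraries became 389 with a minimum of 1 UMI, 76 with 300, 245 at 4 or more members and, chosen after seeing the data, 270 at 5 or more. The 31 multi-member cells in 1 cluster stayed 31 in each clustering without the 10 genes. The 4 genes apart outside the set kept their direction in 15 alternatives each, with ranges of 0.49 to 0.81 for Dclk1, 3.79 to 5.17 for Pik3r5, -1.10 to -0.44 for Pou2f3 and -1.38 to -0.91 for Avil, where median-of-ratios scaling shifts every log2 ratio by 0.15 and TMM (edgeR 4.0.16) by 0.10. Well D12 left out gave 0.81 for Dclk1. The few cells of the set (17 and 12) limit every level in it, and the 36294 UMIs of the 12 cells put the limit of a count of 0 at 82.7 CPM. No paired analysis was possible because each group has 1 library.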
